A study of Homo sapiens with 4 samples.

Results

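The enzymes and carriers that break glucose down to pyruvate, pass pyruvate into mitochondria and oxidize it in the tricarboxylic acid (TCA) cycle were followed in darolutamide-resistant prostate cancer cells after knockdown of the lncRNA LOC730101. The genes were taken by name from the count table, as a list of 42 glycolytic, pyruvate and TCA cycle genes among the 60606 genes of the table by a rule that uses no measured value, although the list was drawn up with earlier results of these data known. All 42 genes were found, and all 42 passed the filter on low counts.

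The cells were DaroR cells, which are LNCaP cells made resistant by long culture in darolutamide, an antiandrogen drug. LNCaP is a prostate cancer cell line. Poly(A) RNA was sequenced in 2 libraries after transfection of DaroR cells with control siRNA (siControl) and in 2 after transfection with a pool of siRNAs against LOC730101 (siLOC730101). Both groups share the resistant background and, as the study describes the culture of these cells, medium with darolutamide. A single resistant line was used, parental LNCaP cells are not analysed here, and nothing in the labels says whether the 2 libraries of a group came from separate cultures. The p-values therefore measure the spread between these libraries, which may be technical.

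The libraries held 39213498 to 53368158 counts. Mitochondrially encoded genes took 3.09% and 3.17% of the counts in siControl and 2.64% and 2.76% in siLOC730101; their part in the results was not tested. LOC730101, listed as ENSG00000216775 on chromosome 6 (GRCh38, positions 52664366 to 52669155, plus strand), had a normalized CPM of 47.4 and 50.6 in siControl and 15.4 and 17.9 in siLOC730101; normalized CPM is the count scaled for library size with the TMM factors of edgeR. This is a log2 fold change of -1.56 with a standard error (SE) of 0.12 and an edgeR adjusted p = 4.34e-06. All 9 markers of luminal prostate cells on the list, among them KLK3 and KRT18, were detected, and 0 of the 9 passed an adjusted p of 0.05 in edgeR. Of 6 markers of other cell types, KRT5, TP63 and PTPRC, which mark basal cells and leukocytes, had 0 counts in all 4 libraries, and PECAM1 and DCN, of endothelial cells and fibroblasts, had 0 to 2. COL1A1, a fibroblast collagen, had 797 and 516 counts in siControl and 451 and 462 in siLOC730101, and its part in the results was not tested.

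Glycolysis converts glucose to pyruvate in the cytosol, and lactate dehydrogenase interconverts pyruvate and lactate. Pyruvate enters mitochondria through a carrier and is converted to acetyl-CoA by the pyruvate dehydrogenase complex or to oxaloacetate by pyruvate carboxylase, and the TCA cycle then oxidizes acetyl-CoA. Normal prostate epithelium is known for accumulating and secreting citrate, whereas prostate cancer cells oxidize more of it. Several of these steps are served by isoenzymes from separate genes, so that the make-up of a step can change without a change in the total.

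The study examined miR-1-3p as a target of LOC730101, so the 3′ UTRs of the 42 genes were searched for seed matches of this miRNA. The mature sequence, which RefSeq places among other sites at chr20:62554351-62554372 on the plus strand (MIR1-1, GRCh38.p14), is shown with its seed, bases 2 to 8, in capitals. Below it stand the 4 genes whose 3′ UTR held ACATTCC, the match to the whole seed, with the match and a following A where present in capitals.
hsa-miR-1-3p: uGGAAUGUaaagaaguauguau
DLD: gcttttgtagaagtcACATTCC
IDH3A: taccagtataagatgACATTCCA
PDHA1: cagctcttctctgtcACATTCC
PDK1: tagatgccaggcttaACATTCC

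The sites were read from the canonical transcripts of a GENCODE annotation on GRCh37, on the strand of each gene, and lie in the 3′ UTR. The capitals of DLD lie at chr7:107559761-107559767, those of IDH3A at chr15:78462396-78462403, those of PDHA1 at chrX:19379275-19379281 and those of PDK1 at chr2:173469743-173469749. ACATTCC was found in 4 of the 42 genes (9.52%) and in 13.4% of 13336 protein-coding genes tested, whose 3′ UTRs were longer (median 1329 nucleotides, against 885 in the 42 genes). Including CATTCCA, the weaker match that lacks the pairing of base 8 and ends in A, 6 of the 42 genes (14.3%, against 22.4% of the protein-coding genes) held a site, adding IDH2 and PGAM1. The log2 fold changes after siLOC730101 were 0.098 for DLD, 0.063 for IDH3A, 0.076 for PDHA1 and -0.11 for PDK1, and none of these 4 genes passed an adjusted p of 0.05 in edgeR.

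Levels between genes were compared as normalized CPM per kilobase of exon and are plotted for each library. The length is that of all annotated exons of a gene, whichever transcripts the cells express. Ranks and ratios between genes may therefore partly reflect the annotation. GAPDH, which oxidizes glyceraldehyde 3-phosphate, was the highest, at 482.3 ± 15.7 (SD, n = 2) in siControl. ENO1 (enolase) followed at 257.5 ± 5.16 (SD, n = 2), then IDH1, the cytosolic NADP-dependent isocitrate dehydrogenase, at 229.3 ± 4.93 (SD, n = 2) and TPI1 (triosephosphate isomerase) at 223.4 ± 3.61 (SD, n = 2). IDH1 and TPI1 lay within their spread of each other, whereas GAPDH and ENO1 were apart from their neighbours in both siControl libraries. In all, 8 genes exceeded 100 per kilobase in siControl, the others being PGAM1, MDH2, PKM and PGK1. IDH1 and MDH2 were the 2 of these 8 that belong to the TCA cycle or its cytosolic counterparts, and the other 6 act in glycolysis.

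**Figure D1:**
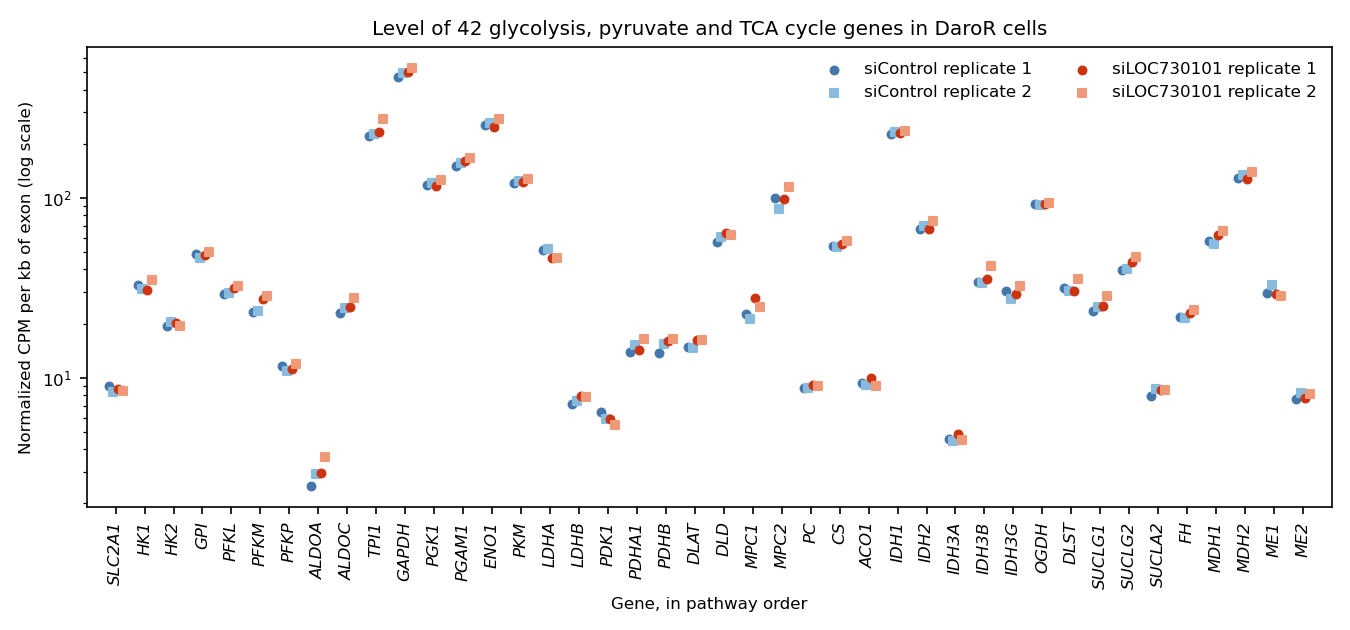
Normalized CPM per kilobase of exon (log scale) of the 42 genes in pathway order, with 1 point for each of the 4 libraries. GAPDH is highest at 482.3 in siControl and ALDOA lowest at 2.70, and for most genes the 4 points nearly coincide.

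At the low end, 9 genes were under 10 per kilobase in siControl. They were the glucose transporter SLC2A1 (8.63), ACO1 (9.27), PC (8.75), SUCLA2 (8.28), ME2 (7.93), LDHB (7.29), PDK1 (6.15), IDH3A (4.48) and ALDOA (2.70). Some of these levels may be too low, since any annotated exons outside the expressed transcripts add to the length and some exons are shared. The counting command has no option to keep reads that fall on several genes, and 54.2% of the exon bases of ALDOA, 38.8% of those of IDH3A and 33.4% of those of LDHB also lie in exons of another gene of the table. For ALDOA the largest shared stretch, 42.8% of its exon bases, is with ENSG00000285043 on the same strand, which itself had 61 to 161 counts. For LDHB the whole shared stretch is with ENSG00000285854 on the same strand, which had 0 to 2 counts. Among the 42 genes, 16 shared no exon base with another gene, LDHA, PKM, PFKL and IDH2 among them.

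After siLOC730101, 0 of the 42 genes were higher and 0 were lower with an adjusted p under 0.05 in edgeR, where 0.284% of all 19349 genes tested were called in either direction (0.212% higher and 0.0724% lower). DESeq2 called 1 of the 42, PFKM (DESeq2 adjusted p = 0.0304), where it called 3.08% of the 9653 genes to which it gave an adjusted p. At an unadjusted p under 0.05 in edgeR there were 7 genes (16.7%, against 10.8% of all genes), of which 6 were higher (against 6.43% of all genes) and 1, LDHA, was lower (against 4.39%). Among the 9583 genes at least as abundant as the lowest of the 42, 15.5% had an unadjusted p under 0.05 in edgeR and 10.8% did so and were higher, which is near the 16.7% and 14.3% of the 42 genes. The differences were small. The log2 fold changes ranged from -0.16 to 0.29, and 41 of the 42 genes had their whole 95% interval between -0.5 and 0.5, a range of 1.41-fold either way, without correction for the number of genes. The exception was ALDOA, whose interval reached 0.65.

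The direction was uneven within this narrow range. With TMM scaling 37 of the 42 log2 fold changes (88.1%) were above 0 and 5 (11.9%) below, against 50.4% of all genes below 0, and 29 were above 0 with upper-quartile factors and 28 with library size only. The median was 0.074, beside -0.0021 over all genes tested. The distance between those medians was 0.0763 with TMM, 0.0758 with upper-quartile factors and 0.0749 with library size only. Of the 9583 genes at least as abundant, 57.1% lay above 0, with a median of 0.026. Both siLOC730101 libraries lay above both siControl libraries in 19 of the 42 genes (45.2%, against 21.3% of all genes and 28.4% of those at least as abundant) and below them in 2, LDHA and ME1 (4.76%, against 20.5% and 18.7%). Without siLOC730101 replicate 2, 28 genes were above 0 and the median was 0.046; without siLOC730101 replicate 1 it was 0.12, and 5 of the 42 genes were called higher, where 4.3% of all genes were.

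**Figure D2:**
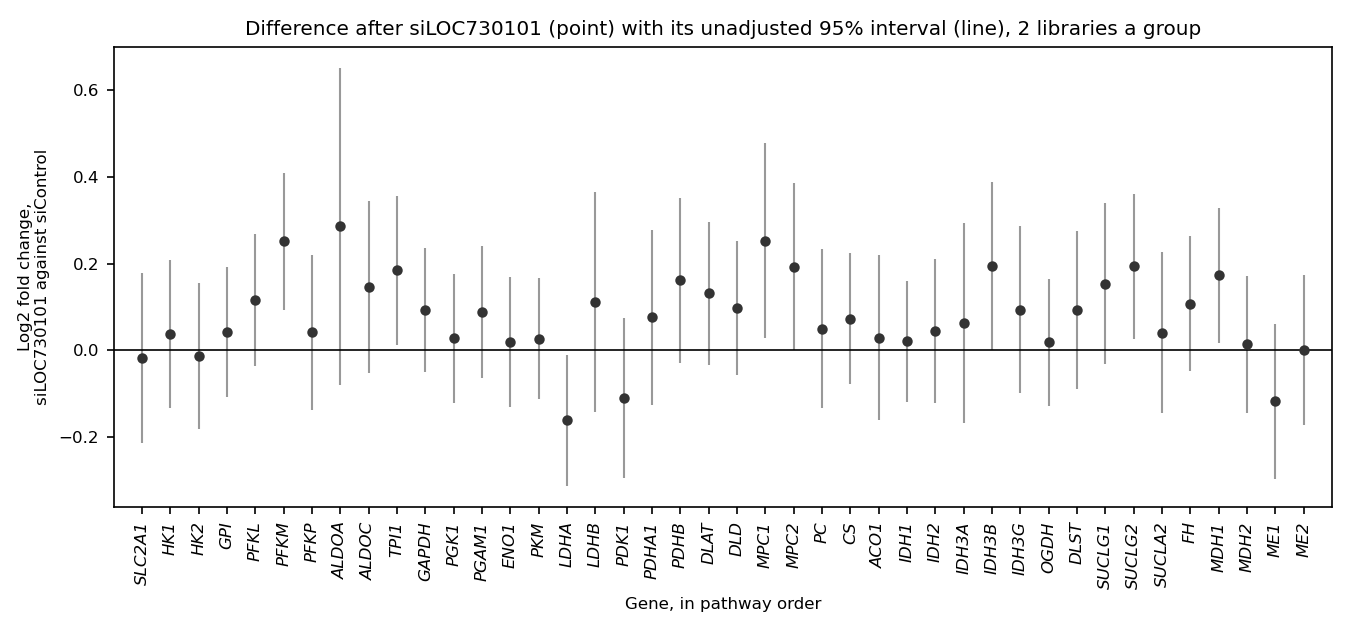
Log2 fold change of each of the 42 genes, siLOC730101 against siControl, in pathway order, with the unadjusted 95% interval from the edgeR fit. Most points lie between 0 and 0.2, and LDHA, PDK1, ME1, SLC2A1 and HK2 lie below 0.

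Transcripts of the genes for glucose uptake and trapping differed little between the groups, and uptake itself was not measured. SLC2A1, the main glucose transporter of many cancer cells, had a normalized CPM of 59.4 and 54.8 in siControl and 57.2 and 55.5 in siLOC730101, and the groups overlapped. Its log2 fold change was -0.019, with a 95% interval from -0.215 to 0.177. Among the hexokinases, which trap glucose as glucose 6-phosphate, HK1 had 207.2 and 195.7 in siControl and 194.7 and 218.6 in siLOC730101. HK2 had 115.4 and 120.1 in siControl and 118.9 and 114.6 in siLOC730101. Both overlapped between groups, with log2 fold changes of 0.037 and -0.012. HK1 made up 60.5% to 64.2% of the length-scaled counts of the pair in the 4 libraries.

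PFKM had the lowest unadjusted p of the 42 genes. It encodes the muscle-type phosphofructokinase, a subunit of the enzyme that commits fructose 6-phosphate to glycolysis. Its normalized CPM was 169.0 and 170.4 in siControl and 198.5 and 205.4 in siLOC730101, so that each siLOC730101 library lay above both siControl libraries by far more than the distance within a group. The log2 fold change was 0.25 (SE 0.074, 95% interval 0.094 to 0.41), with an adjusted p of 0.174 in edgeR. The value ranged from 0.213 to 0.285 over 12 alternatives, and passed the threshold in 3 of them, among which were DESeq2 and leaving out siLOC730101 replicate 1 (edgeR adjusted p = 0.00968). PFKM lies on chromosome 12 from 48105139 to 48146404 (GRCh38, plus strand), and its exons share 5.5% of their bases with SENP1 on the opposite strand.

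The other phosphofructokinase genes differed less. PFKL, the liver type, had 262.0 and 263.0 in siControl and 280.4 and 288.7 in siLOC730101 (log2 fold change 0.12, 95% interval -0.036 to 0.27). PFKP, the platelet type, had 89.8 and 85.2 in siControl and 87.3 and 92.8 in siLOC730101, which overlapped. Per kilobase of exon, PFKM was 0.794-fold and 0.798-fold PFKL in siControl and 0.872-fold and 0.877-fold in siLOC730101. The log2 ratio of PFKM to PFKL was 0.13 higher in siLOC730101, and the groups did not overlap.

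In the rest of upper glycolysis, TPI1 depended on a single library. It had 596.3 and 610.1 in siControl and 628.2 and 743.1 in siLOC730101, so that siLOC730101 replicate 2 stood well above the other 3. Its log2 fold change was 0.18 (SE 0.081, edgeR adjusted p = 0.419), and it was 0.31 without siLOC730101 replicate 1 (edgeR adjusted p = 2.96e-04) and 0.056 without siLOC730101 replicate 2. ALDOA and ALDOC encode aldolases, which split fructose 1,6-bisphosphate. ALDOA had 9.58 and 11.1 in siControl and 11.3 and 13.9 in siLOC730101, and ALDOC had 59.8 and 63.9 and then 64.3 and 72.5. Leaving out single libraries moved the log2 fold change from 0.125 to 0.439 for ALDOA and from 0.0553 to 0.239 for ALDOC, lowest without siLOC730101 replicate 2 and highest without siLOC730101 replicate 1. Neither passed the threshold, and because most exon bases of ALDOA are shared, the level of ALDOC relative to ALDOA cannot be read from these counts. GPI, which interconverts glucose 6-phosphate and fructose 6-phosphate, had a log2 fold change of 0.042 with overlapping groups.

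Lower glycolysis held several of the most abundant genes, with narrow intervals. GAPDH had a normalized CPM of 1129 and 1182 in siControl and 1197 and 1266 in siLOC730101, a log2 fold change of 0.092 (95% interval -0.051 to 0.23). PGAM1, the phosphoglycerate mutase, likewise had groups that did not overlap, with 380.0 and 398.5 in siControl and 406.4 and 421.3 in siLOC730101. PGK1, ENO1 and PKM overlapped between groups, with log2 fold changes of 0.028, 0.019 and 0.027; each of the 3 turned to below 0 with upper-quartile factors or library size only. For PKM, the pyruvate kinase gene, the 95% interval was -0.11 to 0.17, and the counts per gene do not separate its M1 and M2 transcripts.

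**Figure D3:**
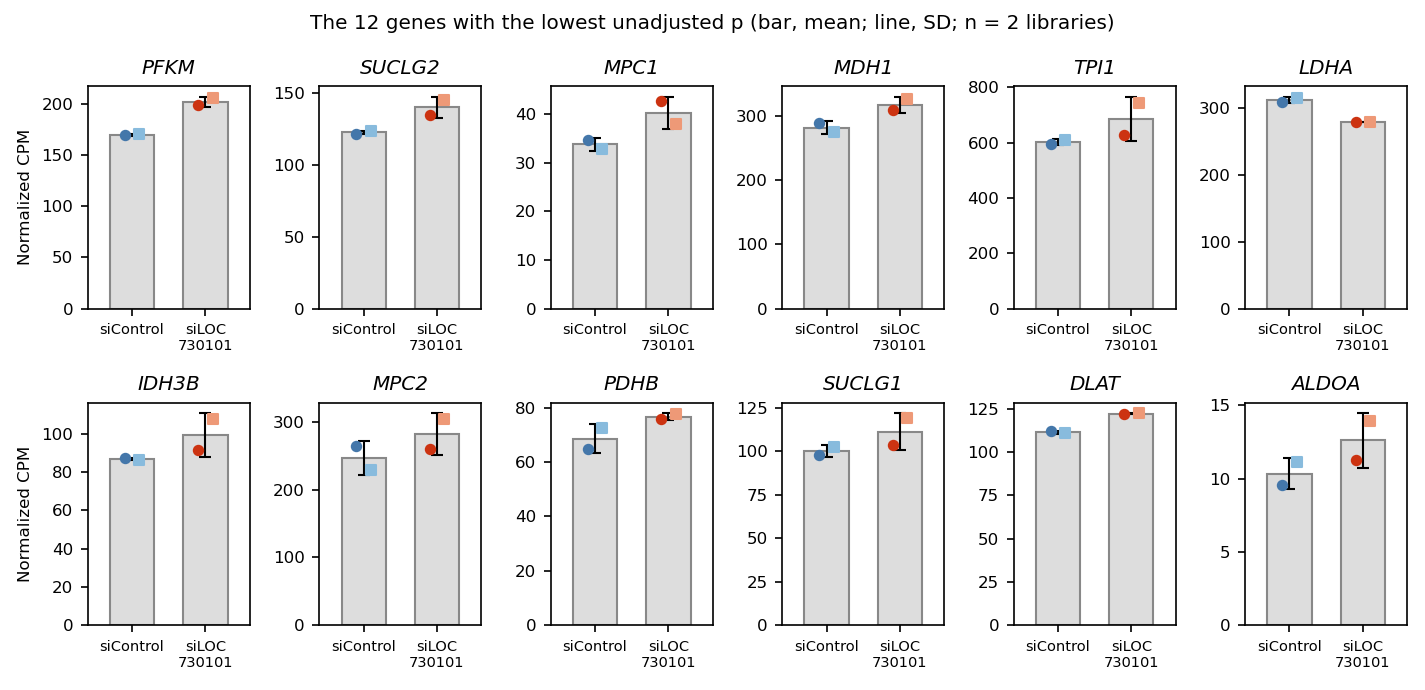
Normalized CPM in each library for the 12 genes with the lowest unadjusted p in edgeR, with bars for the mean and lines for the SD (n = 2 libraries). In PFKM, DLAT and LDHA the points of a group lie close together and the groups are apart, whereas TPI1, IDH3B, SUCLG1 and ALDOA have a high value in siLOC730101 replicate 2.

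LDHA had the lowest log2 fold change of the 42 genes. Lactate dehydrogenase is a tetramer of LDHA and LDHB subunits, of which LDHA favours the conversion of pyruvate to lactate. LDHA, on chromosome 11 from 18394560 to 18408425 (GRCh38, plus strand), had a normalized CPM of 308.9 and 315.8 in siControl and 279.4 and 278.9 in siLOC730101, with both siLOC730101 libraries below both siControl libraries. The log2 fold change was -0.16 (SE 0.071, 95% interval -0.31 to -0.010), with an adjusted p of 0.424 in edgeR, and it lay between -0.20 and -0.14 over 12 alternatives, none of which passed the threshold. LDHB had 21.3 and 22.2 in siControl and 23.7 and 23.2 in siLOC730101, again without overlap, and a log2 fold change of 0.11 (95% interval -0.14 to 0.36).

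The ratio of LDHA to LDHB, which needs no scaling between libraries, was 7.16 and 7.04 in siControl and 5.82 and 5.94 in siLOC730101 per kilobase of exon. The 4 ratios fell into groups that did not overlap, and the siControl mean of the log2 ratio was 2.83 ± 0.017 (SD, n = 2). The siLOC730101 mean was 2.56 ± 0.020 (SD, n = 2). The difference of -0.27 was the largest in size among 10 gene pairs compared, with values from -0.29 to -0.26 on leaving out single libraries. Because 33.4% of the exon bases of LDHB are shared with another gene, the level of this ratio may be too high. The lengths used, 6038 bases for LDHA and 2983 for LDHB, take in all annotated exons and may bias the level either way. The change of the ratio does not depend on these lengths. Sharing affects it only if the uncounted part changed between groups. With 2 libraries a group, the exact two-sided permutation test could not give a p under 0.333, which is its value here (Benjamini-Hochberg adjusted p = 0.476 over 10 pairs).

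**Figure D4:**
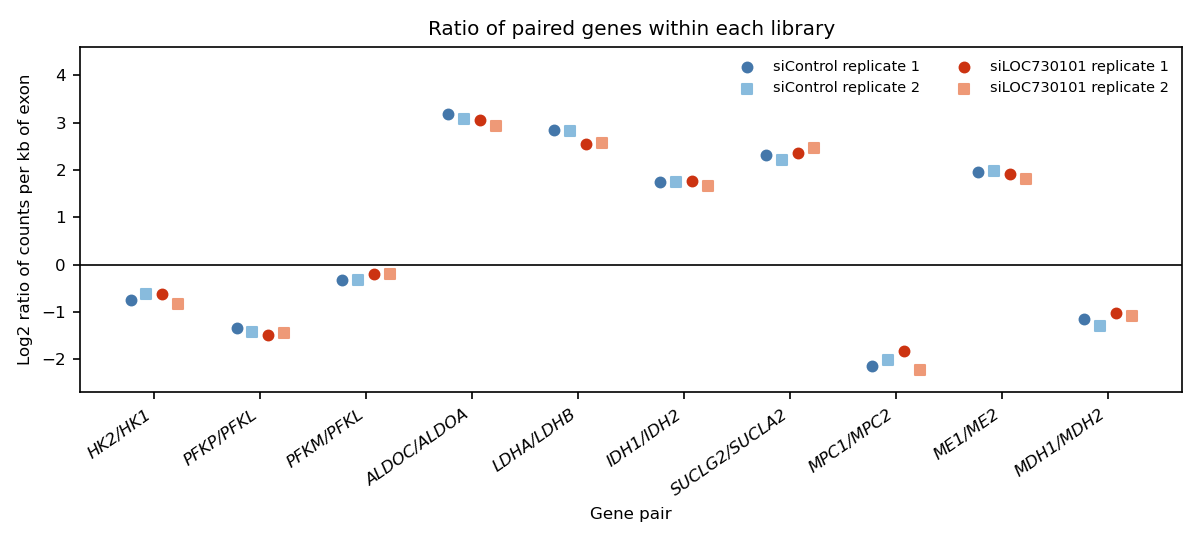
Log2 ratio of counts per kilobase of exon for 10 gene pairs, with 1 point for each library. The LDHA/LDHB points of siLOC730101 (2.56 on average) lie below those of siControl (2.83), and the HK2/HK1, IDH1/IDH2 and MPC1/MPC2 points overlap between groups.

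Of the 10 pairs, 7 did not overlap between groups, 3 higher and 4 lower in siLOC730101, and each had the smallest possible exact permutation p of 0.333. Among single genes, 41.7% of all 19349 tested did not overlap between groups in either direction. The share among other gene pairs was not tested, so the count of 7 does not show a general shift in isoenzyme make-up. Besides PFKM/PFKL, the higher pairs were SUCLG2/SUCLA2, with a difference of 0.15, and MDH1/MDH2, with a difference of 0.16. The lower ones were LDHA/LDHB, ALDOC/ALDOA (-0.14), ME1/ME2 (-0.12) and PFKP/PFKL (-0.075). Leaving out single libraries moved 5 of these differences by more than 1.5 times without a change of sign. The ranges were 0.0944 to 0.206 for SUCLG2/SUCLA2 and 0.0891 to 0.23 for MDH1/MDH2, with the lowest values without siControl replicate 2. They were -0.203 to -0.072 for ALDOC/ALDOA and -0.175 to -0.0603 for ME1/ME2, nearest to 0 without siLOC730101 replicate 2, and -0.116 to -0.0346 for PFKP/PFKL, nearest to 0 without siControl replicate 1. The differences in HK2/HK1 (-0.048), IDH1/IDH2 (-0.023) and MPC1/MPC2 (0.059) changed sign when a library was left out.

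Pyruvate enters mitochondria through a carrier made of MPC1 and MPC2. MPC1 had a normalized CPM of 34.8 and 32.9 in siControl and 42.7 and 38.1 in siLOC730101, and the groups did not overlap. Its log2 fold change was 0.25 (SE 0.11, edgeR adjusted p = 0.389). MPC2 was more abundant per kilobase, and its groups overlapped, with 264.4 and 228.6 in siControl and 259.8 and 303.9 in siLOC730101. The log2 fold change of MPC2 was 0.19 (edgeR adjusted p = 0.462); it was 0.31 without siLOC730101 replicate 1 (edgeR adjusted p = 0.00178) and 0.073 without siLOC730101 replicate 2. MPC2 shares 21.8% of its exon bases with DCAF6 on the opposite strand.

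The 4 genes of the pyruvate dehydrogenase complex on the list all had log2 fold changes above 0, and none passed the threshold in edgeR. DLAT, the acetyltransferase core, had 112.3 and 111.1 in siControl and 122.1 and 122.6 in siLOC730101, a log2 fold change of 0.13 (95% interval -0.035 to 0.30). PDHB, a subunit of the decarboxylase, had 64.7 and 72.4 in siControl and 75.7 and 77.6 in siLOC730101, a log2 fold change of 0.16 that came to 0.0838 on leaving out siControl replicate 1 and to 0.247 on leaving out siControl replicate 2. The groups of DLAT, PDHB and DLD did not overlap, and those of PDHA1 did. PDHA1, whose 3′ UTR holds a miR-1-3p site shown above, turned to -0.034 without siLOC730101 replicate 2. PDK1, a kinase that inhibits the complex, had 95.2 and 87.4 in siControl and 87.9 and 81.2 in siLOC730101, with a log2 fold change of -0.11 and overlapping groups, and was at -0.0472 without siControl replicate 1 and at -0.168 without siControl replicate 2. PC, the pyruvate carboxylase, had 64.1 and 63.7 in siControl and 66.3 and 66.0 in siLOC730101, a log2 fold change of 0.050 (95% interval -0.13 to 0.23).

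All 15 genes of the TCA cycle and its cytosolic counterparts had log2 fold changes above 0 with TMM, from 0.014 for MDH2 to 0.19 for IDH3B; IDH1, OGDH, ACO1 and MDH2 were below 0 with upper-quartile factors and with library size only. SUCLG2, the GTP-forming beta subunit of succinyl-CoA synthetase, had 121.9 and 123.6 in siControl and 135.1 and 145.6 in siLOC730101. Its log2 fold change was 0.19 (95% interval 0.025 to 0.36, edgeR adjusted p = 0.369). SUCLG1, the alpha subunit, had 97.9 and 102.6 in siControl and 104.0 and 119.0 in siLOC730101, and neither of these genes overlapped between groups. The log2 fold change of SUCLG1 was 0.15, and it came to 0.0506 on leaving out siLOC730101 replicate 2 and to 0.257 on leaving out siLOC730101 replicate 1. SUCLA2, the ATP-forming beta subunit, had 70.2 and 76.9 and then 75.7 and 75.5, with a log2 fold change of 0.041 and overlapping groups.

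Malate dehydrogenase interconverts malate and oxaloacetate in the cytosol (MDH1) and in mitochondria (MDH2). MDH1 had 288.9 and 275.1 in siControl and 308.9 and 326.8 in siLOC730101, a log2 fold change of 0.17 (95% interval 0.016 to 0.33, edgeR adjusted p = 0.400). MDH2 overlapped between groups, with 468.0 and 491.3 in siControl and 461.0 and 507.8 in siLOC730101. Neither gene of the malic enzymes, which convert malate to pyruvate, passed the threshold in edgeR. ME1, the cytosolic enzyme, had 99.2 and 109.2 in siControl and 97.5 and 94.5 in siLOC730101, a log2 fold change of -0.12 that came to -0.185 on leaving out siControl replicate 1 and to -0.0442 on leaving out siControl replicate 2. ME2, the mitochondrial enzyme, had a log2 fold change of 4.5e-04, with a 95% interval from -0.17 to 0.17. It turned below 0 in 7 of 12 alternatives, so it showed no direction.

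The isocitrate dehydrogenases were dominated by IDH1. IDH1 had 1061 and 1094 in siControl and 1079 and 1107 in siLOC730101, and IDH2, its mitochondrial NADP-dependent relative, had 187.9 and 193.9 and then 187.4 and 206.6. Per kilobase, IDH1 was 3.35-fold IDH2 in both siControl libraries and 3.42-fold and 3.18-fold in the siLOC730101 libraries. Among subunits of the NAD-dependent enzyme, IDH3B had 87.4 and 86.6 in siControl and 91.4 and 107.6 in siLOC730101, with the higher value in replicate 2. Its log2 fold change of 0.19 had an adjusted p of 0.461 in edgeR and was 0.32 without siLOC730101 replicate 1 (edgeR adjusted p = 0.0141) and 0.070 without siLOC730101 replicate 2. IDH3A, with a log2 fold change of 0.063, and IDH3G, with 0.094, overlapped between groups.

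The remaining genes of the cycle differed by at most 0.11 on the log2 scale. FH, the fumarase, had a log2 fold change of 0.11 and CS, the citrate synthase, of 0.073, and neither overlapped between groups. OGDH and DLST, subunits of the 2-oxoglutarate dehydrogenase complex, had 0.018 and 0.094, and ACO1, the cytosolic aconitase that also binds iron-responsive RNA elements, had 0.029. The groups overlapped in all 3. DLD, a subunit shared by both dehydrogenase complexes, had 290.1 and 307.9 in siControl and 323.6 and 316.6 in siLOC730101.

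The 42 genes together held 1.20% and 1.22% of all counts in siControl and 1.22% and 1.25% in siLOC730101. Their share was highest in siLOC730101 replicate 2. The glycolytic genes from SLC2A1 to LDHB took 58.0% to 58.6% of these counts in each library. The division of counts between them and the other listed genes therefore varied by less than 1 percentage point. Those other genes include cytosolic enzymes such as IDH1 and MDH1, so the division is not one between glycolysis and mitochondrial steps.

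Neighbouring pathways were read from lists of 90 further genes, of which 76 were tested. In edgeR, 0 of the 76 were higher and 0 were lower with an adjusted p under 0.05, 6 were higher and 2 lower at an unadjusted p under 0.05 (10.5%, against 10.8% of all genes), and DESeq2 called 2, both higher. The median log2 fold change was 0.056. Of 8 other genes linked to pyruvate dehydrogenase, PDHX, a subunit that binds DLD within the complex, had the lowest p. Its log2 fold change was 0.29 (edgeR adjusted p = 0.153), and the groups did not overlap. Of 8 other TCA cycle genes, 7 lay above 0 with TMM (87.5%, against 49.6% of all genes tested). Of the 9583 genes at least as abundant as the lowest of the 42, 57.1% did so. The median of the 8 genes was 0.12, beside 0.026 over those 9583. SDHB of succinate dehydrogenase (0.16) and OGDHL (0.28) were among the 7 above 0.

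Of 7 pentose phosphate pathway genes, 6 lay above 0 with TMM (85.7%, against 49.6% of all genes tested), with a median of 0.14. TALDO1, the transaldolase, lay at 0.21 (edgeR adjusted p = 0.288), PGLS, the lactonase, at 0.26 and TKT, the transketolase, at 0.15 on the log2 scale. The 3′ UTRs of TKT and PGD hold ACATTCC. In the branch of citrate, malate and glutamate, 10 of 12 genes lay above 0, with ACSS2 at 0.22 and the dicarboxylate carrier SLC25A10 at 0.26. Glycolytic regulators and transporters had no common direction. PFKFB2 lay at 0.14 and PFKFB4 at -0.24, GPD2, a glycerol 3-phosphate dehydrogenase of mitochondria, at -0.18, and the sparsely counted transporters SLC2A4 and SLC2A10 at 0.67 and -1.19. None of these genes passed the threshold in edgeR.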

How the data were processed

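The authors extracted RNA with a Qiagen RNeasy Plus kit, selected poly(A) RNA, trimmed reads with Trim Galore and deposited the counts per gene of the 4 libraries, not normalized. The file header names featureCounts 2.0.1 with hg38 and gencode version 41, whereas the methods name hg19 and STAR, and the submitters' processing notes name BWA; counts were used as deposited. The command has no paired-end or strand option, and 66.0% to 70.1% of counts from 1 to 20 are even, so mates may have been counted separately, and overlapping antisense genes were not separated.

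The test was the quasi-likelihood test of edgeR 4.0.16 under R 4.3.3 (filterByExpr, TMM, 19349 genes, Benjamini-Hochberg adjustment over all of them, biological coefficient of variation 0.147). Fold changes are siLOC730101 against siControl. DESeq2 1.42.0, other scalings, no filter, the legacy setting of the fit, halved counts, a replicate block and leaving out each library were the alternatives. The test was tried on simulated counts of 19349 genes, of which 200 were changed. It recovered 47.5% of them at a 1.5-fold change, with 2 false calls. At a 2-fold change it recovered 52.5%, with 4 false calls. The members and lists were chosen with earlier results of these data known. All 42 genes are named; values per library are given for the 12 with the lowest p and for the gene pairs, and up to 3 genes with the lowest p are named from each pathway list. PGD, HIF1A and VEGFA, and values per library for some further genes, were added after their values were seen. LOC730101 was found by position, since RefSeq (GRCh38.p14) places it on chromosome 6 from 52664401 to 52669153. Sites were searched in GENCODE release 44 on GRCh37, and coordinates were not converted. Count totals set the precision; intervals of fold changes come from the fit.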

Additional observations from a re-analysis of the deposited data

How the results depend on the processing

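Of 504 values of the 42 genes recomputed under 12 alternatives, 456 kept their direction and side of the threshold, 41 changed direction, 7 passed the threshold and 0 lost it, and 26 genes kept 1 direction throughout. Over all genes, 41 were called higher and 14 lower in the edgeR test as reported. With library size only 35 were called lower, without the filter on low counts 324 higher and 113 lower, with DESeq2 233 and 64, with the other legacy setting 87 and 24, and with halved counts 113 and 35. Leaving out a library gave 77 to 923 higher and 26 to 272 lower, with the highest counts without siLOC730101 replicate 1. Of the 42 genes, DESeq2 called 1 higher, leaving out a library called 0 to 5 higher, and none of the alternatives called any lower. The 5 without siLOC730101 replicate 1 were PFKM, TPI1, MPC2, IDH3B and SUCLG2 (SUCLG2 at 0.26, edgeR adjusted p = 0.046). Of the 76 pathway genes, 1 was called higher without the filter and 2 with DESeq2, and leaving out a library called 0 to 9 higher and 0 to 1 lower. Members below 0 numbered 13 with upper-quartile factors, 14 with library size only and 5 to 14 on leaving out a library. Those that turned from above 0 to below it with upper-quartile factors were PGK1 (-0.00386), ENO1 (-0.0124), PKM (-0.00433), ACO1 (-0.0015), IDH1 (-0.0105), OGDH (-0.0131), MDH2 (-0.0174) and ME2 (-0.0307). With library size only, those that turned were HK1 (-0.00181), PGK1 (-0.0108), ENO1 (-0.0196), PKM (-0.011), ACO1 (-0.0073), IDH1 (-0.0172), OGDH (-0.0197), MDH2 (-0.0245) and ME2 (-0.0375). ME2 was also at -0.00289 with DESeq2 size factors, -0.00398 without the filter and -0.00498 with halved counts. Leaving out a library turned the direction of 15 genes, with ranges of -0.0726 to 0.0416 for SLC2A1, -0.0515 to 0.127 for HK1, -0.0401 to 0.0198 for HK2, -0.00596 to 0.0929 for PFKP, -0.0303 to 0.09 for PGK1, -0.0656 to 0.106 for ENO1, -0.0342 to 0.186 for PDHA1 and -0.0377 to 0.0975 for ACO1. The others ranged from -0.000436 to 0.0479 for IDH1, -0.0295 to 0.123 for IDH2, -0.00125 to 0.0435 for OGDH, -0.0198 to 0.206 for DLST, -0.0231 to 0.111 for SUCLA2, -0.0597 to 0.0914 for MDH2 and -0.0565 to 0.0634 for ME2. Among the gene pairs the difference in log2 ratio ranged from -0.158 to 0.0626 for HK2/HK1, -0.0753 to 0.0291 for IDH1/IDH2 and -0.138 to 0.255 for MPC1/MPC2. The cause of these changes was not tested. With the replicate number as a block, 485 genes were called higher and 167 lower, among them 1 of the 42 genes, PFKM (edgeR adjusted p = 0.0292), and 2 pathway genes higher and 1 lower. The correlation of deviations between same-numbered libraries was 0.0152 over all genes and 0.13 over the 42 genes, and with 2 pairs the numbers were not taken as pairs. With 2 libraries a group, a change of the size seen in most of the 42 genes, a median of 0.074 beside a median SE of 0.080, was not detectable.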

Other observations

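Genes of the hypoxia response, several of them known to be induced alongside glycolytic enzymes, were read from a list of 16 genes. The list includes HIF1A, EPAS1 and ARNT, which encode HIF subunits. Of the 16 genes 14 were tested, and CA9 and ADM, with 1 to 12 counts in each library, were not. In edgeR 0 of the 14 passed an adjusted p of 0.05, and 1 was higher and 1 lower at an unadjusted p under 0.05. EGLN1, a prolyl hydroxylase that marks HIF subunits for degradation, had 2068 and 1750 counts in siControl and 2027 and 1883 in siLOC730101, which is 0.39 on the log2 scale after TMM (edgeR adjusted p = 0.115). BNIP3L, a mitophagy receptor, lay at -0.26 (edgeR adjusted p = 0.179) and its relative BNIP3 at 0.15 (edgeR adjusted p = 0.513). VEGFA and HIF1A lay at -0.0050 and 0.087. The median of the list was -0.0046, beside 0.074 for the 42 glycolysis, pyruvate and TCA cycle genes.

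Many of the 42 genes have processed pseudogenes that can take reads of the parent. Pseudogenes named after the parent held few counts here. Reads that fit parent and pseudogene equally well may have been counted for neither, so these counts do not show how many reads a parent lost. There were 65 named for GAPDH, which together had 0.264% of the counts of GAPDH, and 4 named for TPI1, with 1.54%. The 6 named for LDHA had 0.0224%. Adding the named pseudogenes moved the LDHA/LDHB difference from -0.27 to -0.28.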
